A study of Homo sapiens with 36 samples.

Results

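The BCL2 family of apoptosis regulators was followed through the RNA sequencing libraries of 2 human cell lines. The 10 genes were chosen by symbol, as well-known regulators of mitochondrial apoptosis, out of the 60675 genes of the deposited table. They were the anti-apoptotic genes BCL2, BCL2L1 and MCL1, the pore-forming effectors BAX and BAK1, and the BH3-only genes BBC3, PMAIP1, BCL2L11, BID and BMF. All 10 were read in every group, and none was left out for a low value. The choice was made with earlier results of these data known, so that counts and medians of the members are a description.

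SW1783 is an astrocytoma line and HT29 a colorectal adenocarcinoma line. Each line had 18 libraries in 6 groups of 3 replicates, which gave 36 libraries and 12 groups, all taken 24 h after the start of treatment. Batch A held vehicle cells with 0.1% DMSO and cells that received wortmannin, which inhibits the lipid kinase PI3K, at 10 µM. Batch B held a vehicle group of its own, also with 0.1% DMSO, and 3 groups given a water extract of Aconiti Lateralis Radix Preparata, the processed root of Aconitum carmichaeli Debeaux (ACD). The ACD doses were 500 µg/mL (high), 100 µg/mL (medium) and 20 µg/mL (low). In a cell viability assay the authors saw no cytotoxicity at the high dose. The study asked whether ACD acts more strongly on cells of the brain or of the intestine. Each cell type was represented by a single established line, grown in a medium of its own. The labels do not say whether the replicates came from separate cultures, so that p-values measure the spread between these libraries.

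Proteins of the BCL2 family decide whether the outer mitochondrial membrane is breached. BAX and BAK1 form pores through which cytochrome c leaves the mitochondrion, the anti-apoptotic proteins bind and restrain them, and the BH3-only proteins, made or activated under stress, either block the anti-apoptotic proteins or activate the effectors. BBC3 (PUMA) and PMAIP1 (NOXA) are known as targets of stress pathways, BCL2L11 (BIM) as a gene activated by FOXO factors when PI3K signalling is low, and BMF as a protein held at the cytoskeleton until it is released. Much of this control acts on proteins, which were not measured here.

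Total counts ranged from 15941255 to 33866644 per library. Of the markers of each line, vimentin (VIM) ranged from 4076 to 4975 CPM (counts scaled to the same total in every library) in SW1783 and from 0 to 0.133 CPM in HT29, while the epithelial gene EPCAM ranged from 0 to 0.202 CPM in SW1783 and from 452 to 585 CPM in HT29. The glial markers GFAP and S100B stayed at or below 0.261 CPM in SW1783, so that the astrocytic origin on the label was not visible in them. Vehicle libraries of batches A and B with the same replicate number were closer to each other, with a chi-square per degree of freedom of 1.46 to 1.64, than those with different numbers, with 2.04 to 17.7. They were not treated as independent, and no member differed between them at an adjusted p of DESeq2 below 1. In HT29 the second replicate of the high dose stood apart from the other two, with a chi-square per degree of freedom of up to 71.5 between replicates of that group. Results of that dose that lost a call or moved by over 1.5 times without this library are also given without it.

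In untreated cells the 2 lines carried different members of the family. The levels in this paragraph are CPM in the vehicle libraries of batch B, in replicate order. BCL2, the founding anti-apoptotic gene, was at 8.24, 7.21 and 7.64 in SW1783 and at 0.329, 0.503 and 0.498 in HT29. BCL2L1, which encodes BCL-XL, was at 108, 107 and 109 in SW1783 and at 339, 342 and 344 in HT29. The groups did not overlap for either gene, and the direction was opposite: HT29 had less BCL2 and more BCL2L1.

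Among the BH3-only genes, PMAIP1 was at 43.8, 44.4 and 43.1 CPM in SW1783 and at 4.44, 4.46 and 4.8 CPM in HT29. BBC3 was at 0.506, 0.261 and 0.256 CPM in SW1783 and at 10.1, 9.43 and 7.88 CPM in HT29. PMAIP1 was thus higher in SW1783 and BBC3 higher in HT29. Per kilobase of exon, PMAIP1 was at 2.09 ± 0.093 CPM and BBC3 at 2.87 ± 0.361 CPM (SD, n = 3) in HT29, so that BBC3 was the higher. The effector BAX was at 55.5, 51.2 and 55.9 CPM in SW1783 and at 204, 161 and 156 CPM in HT29, and BCL2L11 was at 9.55, 9.51 and 8.25 CPM in SW1783 and at 21.3, 26.6 and 28.3 CPM in HT29.

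A gene was called where the Wald test of DESeq2 gave an adjusted p below 0.05 and the fold change was over 1.5. By this rule 7 of the 10 members differed between the lines, and 55.9% of all genes tested did so, so that the count says little about the family. The log2 fold changes of HT29 against SW1783 were -4.10 ± 0.31 for BCL2, 1.64 ± 0.05 for BCL2L1, 4.74 ± 0.37 for BBC3, -3.29 ± 0.11 for PMAIP1, 1.46 ± 0.14 for BCL2L11 and 1.66 ± 0.12 for BAX (± SE, n = 3 per line). BID, which links death receptors to the mitochondrion, was higher in HT29 by 0.59 ± 0.09, just past the fold threshold, and this call was lost in the vehicles of batch A, where the value was 0.54. It was also lost without SW1783 replicate 1 (0.58), without SW1783 replicate 2 (0.53) and without HT29 replicate 1 (0.57). MCL1 differed by 0.30 ± 0.06, BAK1 by 0.12 ± 0.08 and BMF by -0.06 ± 0.20 on the log2 scale, and none of these was called.

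Levels of different genes were compared per kilobase of exon, with the length taken over all annotated exons of a gene. The transcripts present can be shorter, and how the order depends on this length was not tested. In SW1783 vehicle cells MCL1 led with 29.6 ± 0.215 CPM per kb (SD, n = 3), followed by BCL2L1 with 25.7 ± 0.282, BAX with 21 ± 0.999, PMAIP1 with 20 ± 0.284 and BAK1 with 18.3 ± 0.8. The values of BAX and PMAIP1 lay within their spread of each other. BID stood at 6.48 ± 0.381 CPM per kb, BCL2L11 at 1.35 ± 0.11, BMF at 0.937 ± 0.122, BCL2 at 0.61 ± 0.041 and BBC3 at 0.107 ± 0.045. In HT29 vehicle cells the order began with BCL2L1 at 81.4 ± 0.553 CPM per kb, BAX at 67.1 ± 10.1 and MCL1 at 37.1 ± 2.46, and ended with BMF at 0.908 ± 0.135 and BCL2 at 0.035 ± 0.008.

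Summed per role on the same scale, BH3-only genes made up 23.3 ± 0.221% of the sum of the 10 members in SW1783 vehicle cells. In HT29 vehicle cells they made up 8.69 ± 0.305%. Other genes of the family were not part of this sum. In SW1783 the low dose of ACD gave a share of 24.1 ± 0.696%, the medium dose 28.3 ± 1.25% and the high dose 35.3 ± 1.1%, so that the medium and high doses lay above the vehicle by more than the spread between replicates. In HT29 it was 8.81 ± 0.374%, 8.84 ± 0.285% and 10.1 ± 1.46%, and the high dose did not clear its own spread. Under wortmannin the share was 21.2 ± 0.6% in SW1783 against 24.6 ± 0.255% in the vehicle of batch A, and 9.06 ± 0.048% in HT29 against 8.78 ± 0.324%. Most of the SW1783 sum was PMAIP1, which alone was at 54.5 ± 2.51 CPM per kb at the high dose. CPM is a share of the whole library. Mitochondrial ribosomal RNA took 0.913 to 0.96% of counts in SW1783 vehicles and 5.76 to 6.06% at the high dose, and in HT29 1.14 to 1.22% and 11.3 to 12.5%. The part of this RNA in the levels per kb was not tested. In the percentages the library total cancels, as they are ratios within a library. The calls of the tests below were the same without the genes of the mitochondrial genome.

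**Figure D1:**
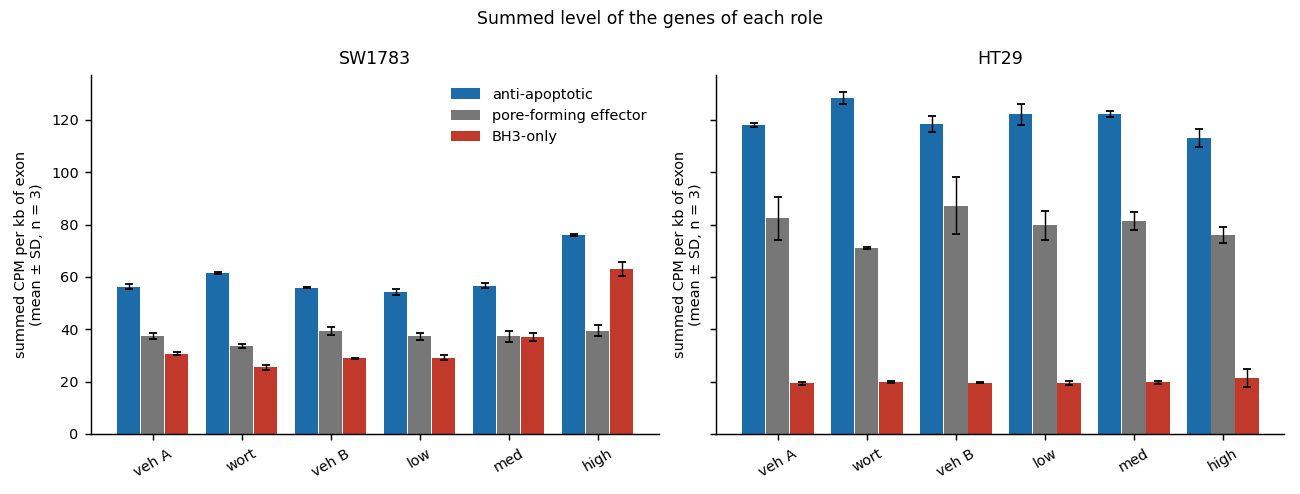
Summed level of the genes of each role, in CPM per kb of exon, for the 6 groups of each cell line (vehicle and wortmannin of batch A, vehicle and low, medium and high ACD of batch B). Bars are means and error bars SD over 3 libraries. In SW1783 the BH3-only sum went from 28.9 in the vehicle of batch B to 63 at the high dose. In HT29 it was 19.6 (SD 0.079) in the vehicle and 21.4 (SD 3.49) at the high dose, a difference within the latter spread.

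The stretches just before the start sites of 4 BH3-only genes are shown because these were the members whose response differed between the lines by the call rule described below. They are the 250 bases upstream of a RefSeq transcription start on GRCh38.p14, printed in the direction of the gene, with matches to the searched motifs in capitals. Of the 10 members 9 had an entry, all but MCL1, and BMF had a second start without a match.
BBC3, chr19:47232668-47232917, minus strand: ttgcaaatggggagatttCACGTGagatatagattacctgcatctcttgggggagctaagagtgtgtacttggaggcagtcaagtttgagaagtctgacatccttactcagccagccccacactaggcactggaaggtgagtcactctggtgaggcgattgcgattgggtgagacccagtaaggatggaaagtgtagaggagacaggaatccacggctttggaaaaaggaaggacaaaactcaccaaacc
PMAIP1, chr18:59899746-59899995, plus strand: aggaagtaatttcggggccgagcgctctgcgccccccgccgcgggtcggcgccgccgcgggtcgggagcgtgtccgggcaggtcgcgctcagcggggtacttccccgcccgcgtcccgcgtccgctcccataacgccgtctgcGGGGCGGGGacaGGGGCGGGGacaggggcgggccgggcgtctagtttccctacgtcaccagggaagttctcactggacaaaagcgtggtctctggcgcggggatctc
BMF, chr15:40108880-40109129, minus strand: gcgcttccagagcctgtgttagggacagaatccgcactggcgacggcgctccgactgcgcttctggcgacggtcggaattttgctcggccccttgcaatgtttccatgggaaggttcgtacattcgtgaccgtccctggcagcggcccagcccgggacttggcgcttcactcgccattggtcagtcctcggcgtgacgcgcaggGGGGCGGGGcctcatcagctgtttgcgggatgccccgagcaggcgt
BCL2L11, chr2:111120664-111120913, plus strand: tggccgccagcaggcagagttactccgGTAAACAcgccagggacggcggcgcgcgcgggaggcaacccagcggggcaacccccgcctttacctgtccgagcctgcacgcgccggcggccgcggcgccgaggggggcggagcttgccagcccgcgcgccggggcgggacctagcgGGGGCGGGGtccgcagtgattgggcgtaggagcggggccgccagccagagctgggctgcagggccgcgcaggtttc

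Exact matches to 5 motifs were searched on both strands, over windows that also took in the 50 bases after the start. BBC3 held CACGTG (E-box), found in 7.26% of the 35116 promoter windows of this length in the table. BAX, a member not called under any treatment, held it at 4 places, and 2 of the 5 windows of BID, likewise not called, held it at a site they share. PMAIP1 held GGGGCGGGG (SP1) at 2 places, BMF held it once and BCL2L11 once, as did 2 overlapping windows of BID, and 15.68% of all windows had it. BCL2L11 also held GTAAACA (forkhead), which 3.42% of all windows had and the windows of BMF, the member called under wortmannin, did not. Neither TGACGTCA (cAMP response element), present in 1.85% of windows, nor TGATGCAA (amino acid response element core), present in 0.87%, was found in the window of any of the 9 members with an entry. None of the marked matches overlapped another. A match describes the letters of these windows and was not tested as a site.

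At the high dose of ACD, SW1783 cells had more RNA of BH3-only genes and also of anti-apoptotic genes. PMAIP1, BBC3, BCL2 and BCL2L1 rose and BMF fell, so that 4 members were called higher and 1 lower, against 8.66% and 9.57% of all genes tested. Together 5 of the 10 members were called, and 18.2% of all genes were. The median log2 fold change of the members was 0.41, and that of all genes tested was -0.01. In bulk RNA, a smaller share of cells with a gene and less of its RNA per cell cannot be told apart.

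The values that follow are counts normalized by DESeq2's size factors within a line and batch, in replicate order, and log2 fold changes are given ± SE with the adjusted p of DESeq2 (n = 3 per group). PMAIP1, whose product blocks MCL1, had 888, 895 and 876 in SW1783 vehicle cells, 906, 896 and 986 at the low dose, 1379, 1394 and 1505 at the medium dose and 2490.1, 2713 and 2627 at the high dose. The high and medium groups stood clear of the vehicle and of each other, and the low group lay close above the vehicle. PMAIP1 rose by 1.56 ± 0.06 at the high dose (adjusted p = 1.06e-169 of DESeq2) and by 0.69 ± 0.06 at the medium dose (adjusted p = 1.25e-30 of DESeq2).

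BBC3, whose product binds all anti-apoptotic members, had 10.2, 5.26 and 5.2 in SW1783 vehicle cells and 9.62, 10.2 and 7.33 at the low dose. At the medium dose it had 27.8, 21.4 and 21.7, and at the high dose 68.3, 90.1 and 81.4. No treated library of the medium or high dose came near the vehicle, although the vehicle counts are small and their relative error is large. In CPM, BBC3 was at 3.65 ± 0.512 at the high dose, still below the 9.15 ± 1.15 of HT29 vehicle cells of batch B (SD, n = 3). BBC3 rose 11.7-fold at the high dose, a log2 fold change of 3.55 ± 0.42 (adjusted p = 1.48e-16 of DESeq2), and 3.43-fold at the medium dose, with 1.78 ± 0.44 (adjusted p = 0.000422 of DESeq2). Without replicate 2 of the medium dose, and in a fit of the medium and vehicle libraries alone, BBC3 got no adjusted p at the medium dose, because DESeq2's filter on low means left it out. Its values there were 1.85 and 1.78.

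BCL2 had 167, 145 and 155 in SW1783 vehicle cells, 164, 184 and 181 at the low dose, 259.6, 266 and 266 at the medium dose and 375, 351 and 360.1 at the high dose. The medium and high groups lay above all vehicle libraries. BCL2 rose by 0.76 ± 0.12 with medium ACD (adjusted p = 3.62e-09 of DESeq2) and by 1.22 ± 0.12 with high ACD (adjusted p = 1.61e-24 of DESeq2). BCL2L1 had 2195, 2150.0 and 2211 in vehicle cells and 3474, 3503 and 3648 at the high dose, with no overlap and a rise of 0.70 ± 0.04 (adjusted p = 4.10e-73 of DESeq2). At the medium dose BCL2L1 had 2497, 2468 and 2476, a difference of 0.18 ± 0.04 that did not reach the fold threshold.

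BMF went the other way. It had 119, 96.4 and 94.7 in SW1783 vehicle cells, 83.7, 85.7 and 90 at the low dose, 54.5, 55.9 and 55.6 at the medium dose and 56.7, 64 and 66.4 at the high dose. Both higher doses lay below every vehicle library and did not order by dose. BMF fell by 0.90 ± 0.20 at the medium dose (adjusted p = 9.66e-05 of DESeq2) and by 0.72 ± 0.20 at the high dose (adjusted p = 0.000948 of DESeq2) on the log2 scale.

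BCL2L11 did not follow the dose. It had 194, 192 and 168 in SW1783 vehicle cells, 117, 141 and 111 at the medium dose and 227, 269 and 245 at the high dose. The medium group lay below and the high group above all vehicle libraries. The difference was -0.58 ± 0.14 at the medium dose (adjusted p = 0.000372 of DESeq2), just short of the fold threshold, and 0.42 ± 0.13 at the high dose (adjusted p = 0.00386 of DESeq2, up to 0.054 when a library was left out), also short of it. Without replicate 2 of the medium dose the first value was -0.70, and without replicate 3 of the vehicle it was -0.65, both past the threshold. The gene shares exonic positions with the antisense gene MIR4435-2HG, which was at 15.9 to 26.1 CPM in SW1783 libraries where BCL2L11 was at 5.11 to 12.4 CPM. The libraries were directional, but the strand setting of the quantification is not given in the sources used here, so the counts of BCL2L11 are uncertain.

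The remaining members moved little in SW1783 cells. MCL1, a short-lived protein that guards against BAK1, had 3706, 3743 and 3737 in vehicle cells and 4959, 4989 and 4825 at the high dose. These groups were far apart relative to their spread, yet the difference of 0.40 ± 0.03 (adjusted p = 1.35e-36 of DESeq2) was a 1.32-fold one and was not called. BAX had 1125, 1034 and 1135 in vehicle cells and 1349, 1247 and 1137 at the high dose, a difference of 0.18 ± 0.07 whose adjusted p of DESeq2 was 0.0259 and went up to 0.187 when a library was left out. BID had 585, 542 and 614 in vehicle cells and 502, 487 and 514 at the high dose, a difference of -0.21 ± 0.08 (adjusted p = 0.0204 of DESeq2, up to 0.13 when a library was left out). BAK1 overlapped between the groups, with 861, 793 and 802 in vehicle cells and 834, 879 and 824 at the high dose, and the interval of its log2 fold change ran from -0.079 to 0.176.

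With medium ACD, 4 members were called in SW1783, 3 higher (BCL2, BBC3 and PMAIP1) and 1 lower (BMF), against 3.81% of all genes tested, 2.34% higher and 1.48% lower. The median log2 fold change of the members was 0.10 and that of all genes -0.001. At the low dose DESeq2 called 0 members, against 0.118% of genes. None had an unadjusted p below 0.05, edgeR called 0 as well, and BCL2, BBC3, BCL2L11 and BMF had no adjusted p. The widest interval at the low dose was that of BBC3, from -0.559 to 1.37, so that a change of its size at the medium dose lay outside it.

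Between the medium and the high dose in SW1783, BBC3 rose by a further 1.77 ± 0.32, PMAIP1 by 0.87 ± 0.05 and BCL2L11 by 1.01 ± 0.14. These 3 calls compare with 10.2% of all genes tested. BCL2L1 (0.51 ± 0.04), BCL2 (0.46 ± 0.11) and MCL1 (0.34 ± 0.03) were also higher at an adjusted p of DESeq2 below 0.05, under the fold threshold. BMF differed by 0.18 ± 0.21 and was not called.

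**Figure D2:**
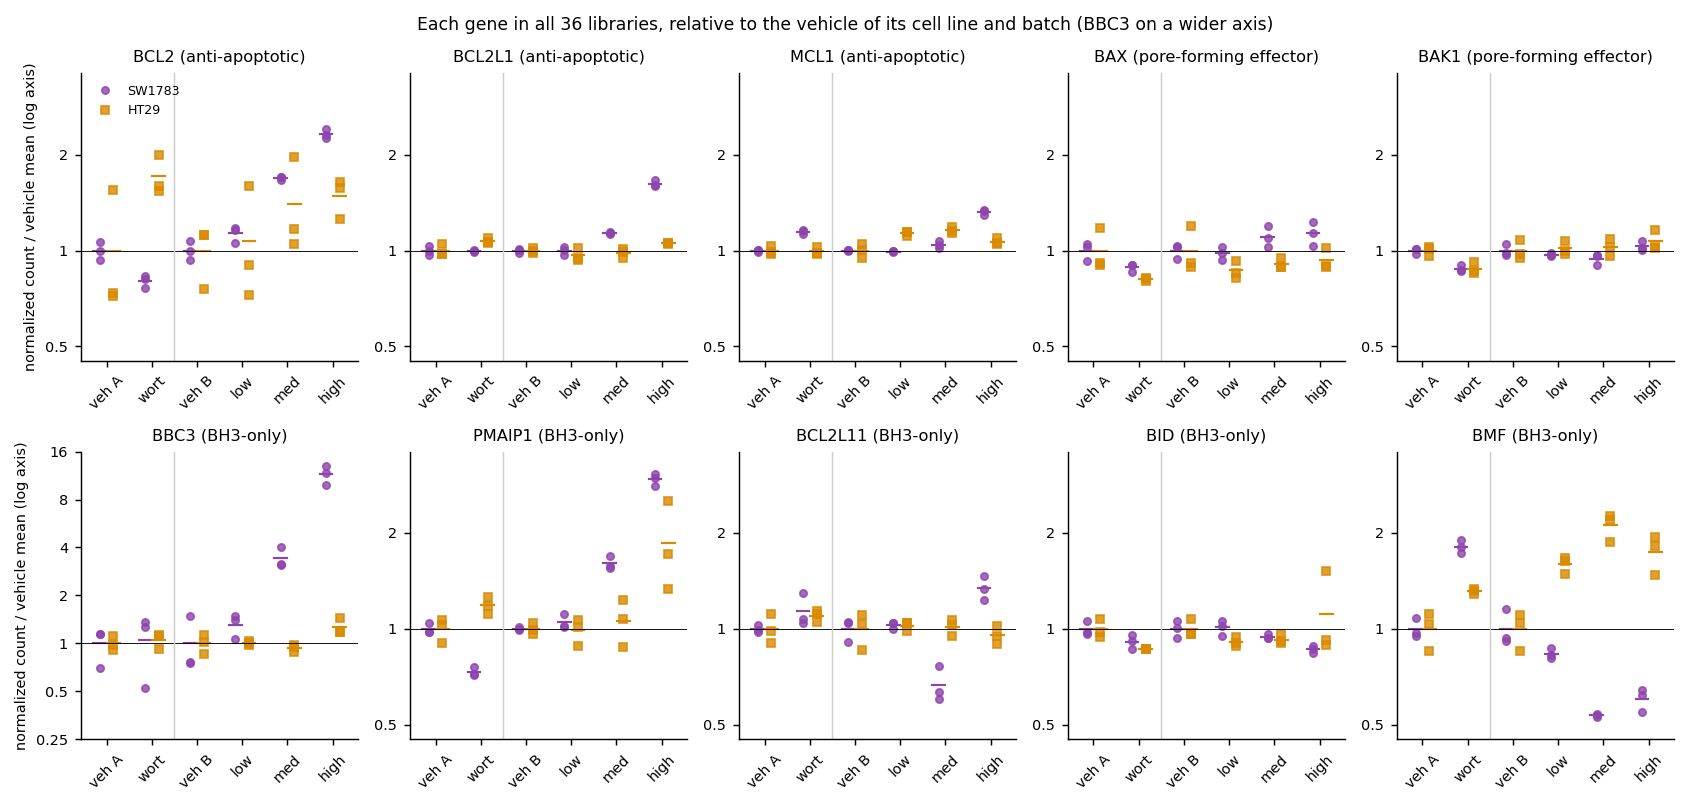
Normalized count of each gene in each of the 36 libraries, divided by the mean of the vehicle libraries of the same cell line and batch, on a log axis with a wider range for BBC3. Points are libraries (circles SW1783, squares HT29) and short lines the group means of 3. BBC3 reached ratios of 9.9 to 13.1 at the high dose in SW1783 and 1.18 to 1.45 in HT29, while BMF went down in SW1783 (0.549 to 0.643) and up in HT29 (1.48 to 1.94).

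Fewer members were called in HT29 cells. BMF rose at all 3 doses and PMAIP1 at the high dose alone, while the other 8 members were not called at any dose. At the high dose 2 of 10 members were called against 2.92% of all genes tested, at the medium dose 1 against 0.827%, and at the low dose 1 against 0.321%. The members' median log2 fold change was 0.12 with high, 0.03 with medium and 0.02 with low ACD, and that of all genes was 0.007, -0.005 and 0.001.

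BMF had 99.3, 122 and 129 normalized counts in HT29 vehicle cells, 194, 173 and 190.2 at the low dose, 219, 256 and 265 at the medium dose and 227, 173 and 212 at the high dose. Every treated library was above every vehicle library, and the medium dose had the highest values. BMF rose by 1.07 ± 0.15 at the medium dose (adjusted p = 4.76e-10 of DESeq2) and by 0.81 ± 0.15 at the high dose (adjusted p = 9.27e-06 of DESeq2), and the latter was 0.90 without replicate 2. The rise of 0.66 ± 0.15 at the low dose (adjusted p = 0.00444 of DESeq2) was lost with edgeR (adjusted p = 0.0845), with counts thinned to equal depth (adjusted p = 0.211) and in 4 of the 6 fits that left out a library. Those were the fits without low dose replicate 1 (0.63, adjusted p = 0.0872 of DESeq2), low dose replicate 3 (0.65, adjusted p = 0.0815), vehicle replicate 1 (0.57, adjusted p = 0.0908) and vehicle replicate 2 (0.70, adjusted p = 0.122).

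PMAIP1 had 107, 104 and 113 in HT29 vehicle cells, 115, 95.6 and 109 at the low dose, 116, 133 and 94.5 at the medium dose and 144, 272 and 186 at the high dose. The high group lay above the others but was spread widely, with its top value in replicate 2. PMAIP1 rose by 0.88 ± 0.23 at the high dose (adjusted p = 0.00294 of DESeq2) and by 0.62 ± 0.20 without replicate 2 (adjusted p = 0.0154 of DESeq2), which was still called.

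The same replicate set BID apart. BID had 1116, 1000.2 and 997 in HT29 vehicle cells and 923, 1575 and 959 at the high dose, so that replicate 2 lay above all vehicle libraries and the other two below them. The log2 difference was 0.15 ± 0.17 with this library and -0.14 ± 0.08 without it, and was called in neither case. MCL1 had 5162, 5469 and 5711 in HT29 vehicle cells, 6237, 6045 and 6250.4 at the low dose and 6181, 6447 and 6296 at the medium dose. Both dose groups lay above the vehicle, with differences of 0.18 ± 0.05 (adjusted p = 0.04997 of DESeq2, up to 0.699 when a library was left out) and 0.21 ± 0.05 (adjusted p = 0.00292 of DESeq2, up to 0.0733), under the fold threshold.

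For BBC3 the HT29 libraries had 245, 219.5 and 185 normalized counts in vehicle cells and 257, 315 and 257 at the high dose. The groups did not overlap, the difference was 0.34 ± 0.13 (adjusted p = 0.102 of DESeq2) and it was not called. BCL2 was near the limit of detection in HT29, with 7.94, 11.7 and 11.7 in vehicle cells and 13.1, 17.1 and 16.4 at the high dose, and its interval at the high dose, from -0.396 to 1.48, held the rise seen in SW1783. BCL2L1 at the high dose differed by 0.07 ± 0.05, BCL2L11 by -0.07 ± 0.11, BAX by -0.10 ± 0.12 and BAK1 by 0.09 ± 0.09. Without replicate 2, the value of BCL2L11 was -0.03, that of BAX -0.17 and that of BAK1 0.04, and BBC3 differed by 0.25. Between the medium and the high dose 1 member, PMAIP1, was called in HT29 (0.79 ± 0.22, adjusted p = 0.0286 of DESeq2), against 0.7% of all genes. That call was lost with edgeR (adjusted p = 0.138), with the replicate number as a block (adjusted p = 0.115) and in a fit of both dose groups alone (adjusted p = 0.385). It was also lost without replicate 2 (0.53) or 3 (0.84) of the high dose, and without replicate 1 (0.80), 2 (0.92) or 3 (0.67) of the medium dose.

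**Figure D3:**
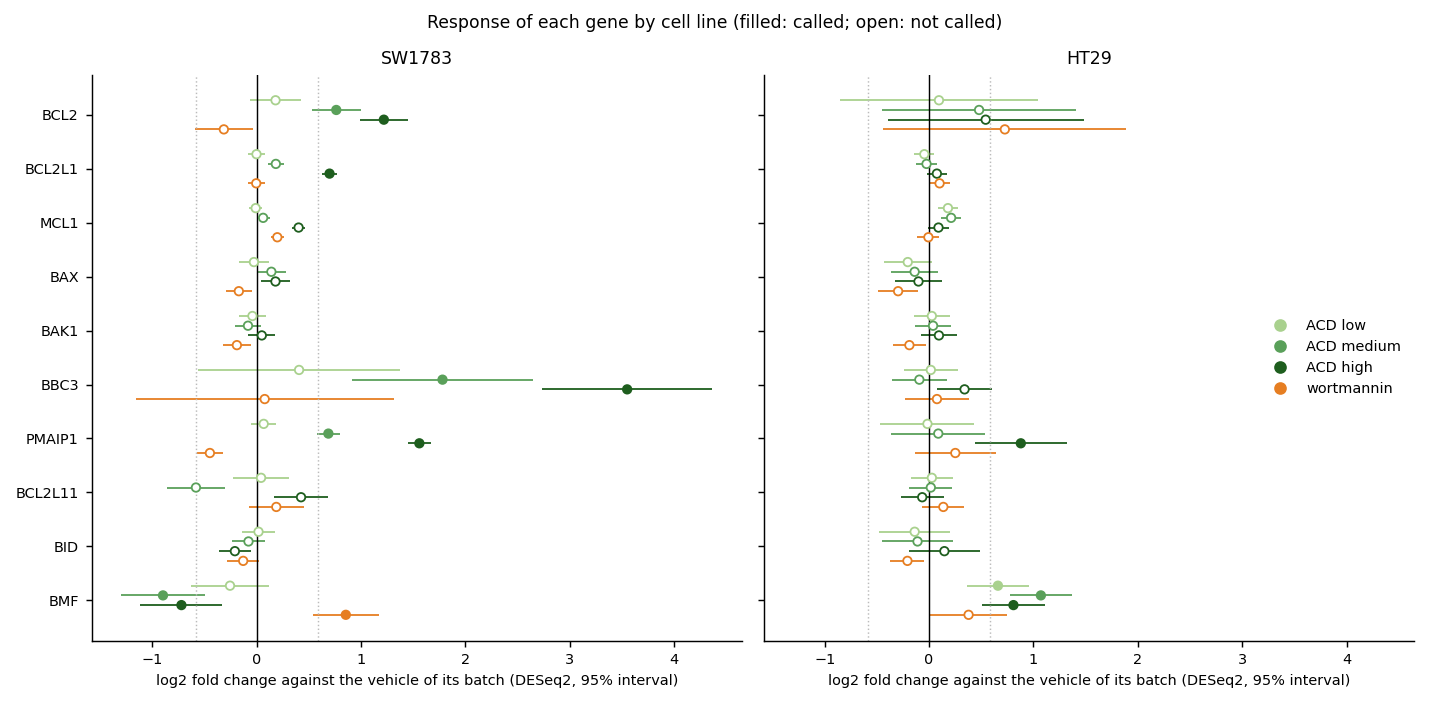
Log2 fold change of each gene against the vehicle of its batch, with 95% intervals, for the 3 doses of ACD and for wortmannin, in SW1783 (left) and HT29 (right) on the same axis. Filled points were called, open points were not, and dotted lines mark a 1.5-fold change. The largest response was that of BBC3 in SW1783 at the high dose, 3.55 with an interval from 2.73 to 4.37.

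Under wortmannin 1 member passed the call rule in SW1783 and 0 did in HT29, while 5 and 1 had an adjusted p of DESeq2 below 0.05. Of all genes tested, 33.9% in SW1783 and 18.7% in HT29 had such an adjusted p. BMF had 102, 113 and 99.7 normalized counts in SW1783 vehicle cells of batch A and 182, 199 and 189 under wortmannin. The groups were well apart, and BMF rose by 0.85 ± 0.16 (adjusted p = 1.46e-06 of DESeq2), in the direction opposite to its fall under ACD in the same line. This was 1 of 10 members against 2.72% of all genes tested. PMAIP1 had 1163, 1089 and 1091 in vehicle cells and 803, 799 and 844 under wortmannin, again without overlap, and the difference of -0.45 ± 0.06 (adjusted p = 7.46e-11 of DESeq2) was short of the fold threshold.

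Other differences under wortmannin in SW1783 were small. MCL1 differed by 0.20 ± 0.03 (adjusted p = 2.04e-09 of DESeq2), BAK1 by -0.19 ± 0.07 (adjusted p = 0.0159 of DESeq2, up to 0.0921 when a library was left out) and BAX by -0.17 ± 0.06 (adjusted p = 0.0219 of DESeq2, up to 0.129). BCL2L11, the member best known for its activation when PI3K is inhibited, had 209.8, 212 and 219.8 in vehicle cells and 229, 223 and 278 under wortmannin. All treated values were above the vehicle values, but the difference of 0.19 ± 0.13 did not pass the test (adjusted p = 0.303 of DESeq2).

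In HT29 DESeq2 called 0 members under wortmannin, against 2.65% of all genes tested. An unadjusted p below 0.05 was found for 4 members, and edgeR also called 0. BAX had 4228, 3234 and 3279 in vehicle cells and 2935, 2920.4 and 2879 under wortmannin, and the difference of -0.30 ± 0.10 (adjusted p = 0.0166 of DESeq2) had an adjusted p of up to 0.106 when a library was left out. BMF had 85.9, 113 and 105 in vehicle cells and 134, 130.2 and 133 under wortmannin. The groups did not overlap, and the difference of 0.38 ± 0.19 did not pass the test (adjusted p = 0.151 of DESeq2).

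Whether the lines differed in their response was tested directly, as the log2 fold change in SW1783 minus that in HT29. At the high dose the difference was called for BBC3, at 3.18 ± 0.37 (adjusted p = 2.06e-16 of DESeq2), for PMAIP1, at 0.66 ± 0.18 (adjusted p = 0.00192 of DESeq2), and for BMF, at -1.57 ± 0.21 (adjusted p = 4.60e-12 of DESeq2). BBC3 and PMAIP1 thus rose more in SW1783, whereas BMF fell in SW1783 and rose in HT29. These 3 of 10 members compare with 14.6% of all genes tested. Without replicate 1 of the HT29 high dose the difference of PMAIP1 was 0.49 and no longer past the threshold, and without replicate 2 it was 0.87.

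The difference in BCL2L1 at the high dose, 0.58 ± 0.05 (adjusted p = 9.15e-25 of DESeq2), fell just short of the fold threshold, and edgeR called it with 0.62. It was also past the threshold, at 0.59, with thinned counts and without replicate 1 or 2 of the SW1783 high dose, replicate 3 of the SW1783 vehicle or replicate 2 of the HT29 vehicle. MCL1 (0.27 ± 0.05) and BCL2L11 (0.45 ± 0.15) had an adjusted p of DESeq2 below 0.05, of 4.70e-08 and 0.0118, under the fold threshold. For BCL2L11 it went up to 0.0603 when a library was left out. The difference in BCL2 was 0.65 ± 0.36 and did not pass the test (adjusted p = 0.182 of DESeq2), so that its rise in SW1783 alone is not a shown difference between the lines. The intervals of BAX (-0.033 to 0.514), BAK1 (-0.272 to 0.099) and BID (-0.763 to -0.024) bound differences that were not called. Without replicate 2 of the HT29 high dose the difference of BID was -0.12 and that of BAK1 -0.04.

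At the medium dose the line difference was called for BBC3, at 1.85 ± 0.40 (adjusted p = 0.000112 of DESeq2), BMF, at -1.99 ± 0.21 (adjusted p = 5.62e-18 of DESeq2), and BCL2L11, at -0.62 ± 0.16 (adjusted p = 0.00179 of DESeq2). These 3 compare with 3.34% of all genes. BCL2L11 had 515, 619.7 and 665 normalized counts in HT29 vehicle cells and 615, 639 and 571 at the medium dose, with overlap, so that the difference came with its lower values in SW1783. It was -0.55 without replicate 3 of the SW1783 medium dose and -0.53 without replicate 1 of the HT29 vehicle, both short of the threshold. PMAIP1, at 0.57 ± 0.19 (adjusted p = 0.0294 of DESeq2), was short of the fold threshold. Its adjusted p was 0.0731 with edgeR and up to 0.143 when a library was left out, with values down to 0.446. It was called with thinned counts (0.67), without replicate 1 of the SW1783 medium dose (0.60), without replicate 2 of the HT29 medium dose (0.70) and without replicate 2 of the HT29 vehicle (0.60).

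Under wortmannin the lines differed in PMAIP1, at -0.73 ± 0.15 (adjusted p = 2.48e-05 of DESeq2), against 3.36% of all genes tested. PMAIP1 had 94.5, 82.8 and 97.6 in HT29 vehicle cells and 115, 108 and 102 under wortmannin, higher in every treated library, where SW1783 was lower in every one. BMF, called in SW1783 only, had a line difference of 0.46 ± 0.21 that did not pass the test (adjusted p = 0.127 of DESeq2). The difference in BCL2 was -0.998 ± 0.40 (adjusted p = 0.0766 of DESeq2) and was called, at -1.56, only without replicate 2 of the HT29 vehicle.

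**Figure D4:**
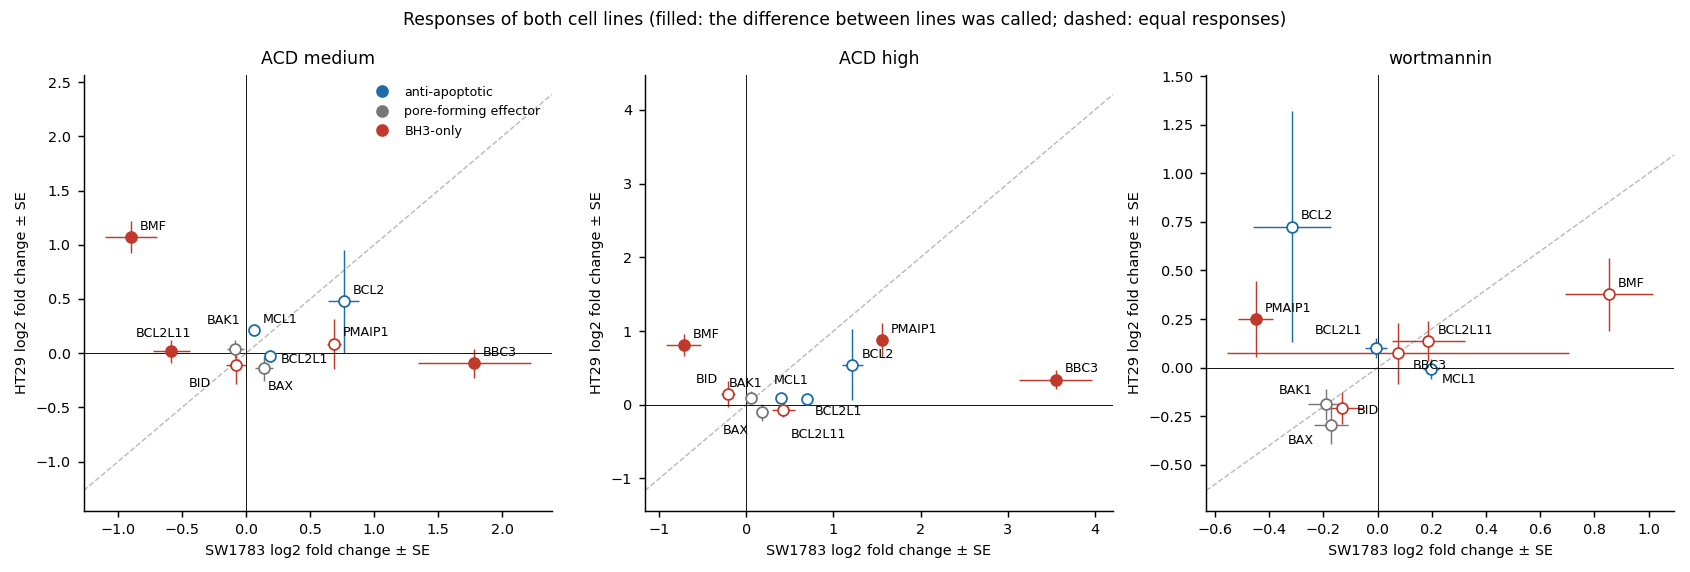
Log2 fold change in HT29 against that in SW1783 for each gene, ± SE, at the medium and high dose of ACD and under wortmannin, each against the vehicle of its batch, with axes scaled per panel. Blue marks anti-apoptotic genes, grey the effectors and red the BH3-only genes, points are filled where the difference between lines was called, and the dashed line marks equal responses. BMF lies in the upper left at both ACD doses and BBC3 far to the right, with line differences of -1.57 and 3.18 at the high dose.

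Genes around the family in the apoptosis pathway were counted over lists drawn up from general knowledge, with the same call rule. The lists were chosen with earlier results of these data known, so that the counts are a description. One list held genes linked to the integrated stress response, the pathway that answers shortage of amino acids and misfolded protein. In SW1783 at the high dose, 10 of these 12 were called higher and 0 lower, at a median of 2.51, against 18.2% of all genes called. They were led by ATF3 (4.73 ± 0.16), TRIB3 (4.31 ± 0.06) and DDIT3 (3.91 ± 0.06), which encodes CHOP. At the medium dose 9 of 12 were higher, led by CHAC1 (2.87 ± 0.13), TRIB3 (2.84 ± 0.06) and NUPR1 (2.16 ± 0.10), against 3.81% of all genes called. At the low dose 2 were, CHAC1 (0.69 ± 0.14) and NUPR1 (0.66 ± 0.11), against 0.118%. In HT29 5 of 12 were higher at the high dose, against 2.92% of all genes called, and 0 were at the other doses. Among the 5 were CHAC1 (2.99 ± 0.17), TRIB3 (1.08 ± 0.07) and DDIT3 (0.76 ± 0.15). The other 2, ATF3 (1.45 ± 0.18) and ATF4 (0.59 ± 0.08), were named after their values were seen. Under wortmannin DESeq2 called 0 in both lines, while edgeR called 1 lower in SW1783, ATF3, whose DESeq2 value was -0.67 ± 0.35 (adjusted p = 0.133).

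Downstream of the mitochondrion, the shares called in SW1783 at the high dose are to be read against the 18.2% of all genes called there. Of 11 apoptosome and caspase genes, 2 fell in SW1783 at the high dose, CASP2 (-0.73 ± 0.06) and APAF1 (-0.72 ± 0.11), the scaffold on which caspase 9 is activated, and 0 were called in any other treatment comparison. Of 8 inhibitors of apoptosis and their antagonists, BIRC3 (1.36 ± 0.10) and XIAP (0.76 ± 0.04) rose and BIRC5 (-0.80 ± 0.05) fell in SW1783 at the high dose. BIRC3 also rose in HT29 at the high (1.09 ± 0.14) and medium dose (1.06 ± 0.14), and fell in SW1783 under wortmannin (-0.92 ± 0.15), while BIRC5 fell in HT29 under wortmannin (-0.87 ± 0.10). Of 9 partners at the outer membrane, such as the VDAC channels, 0 were called in any treatment comparison.

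Of 13 other BCL2 homologues, 1 was higher and 1 lower in SW1783 at the high dose, where 18.2% of all genes were called. The lower one was BNIP3 (-0.64 ± 0.04), and DESeq2 called 0 in any other treatment comparison. The higher one was HRK, itself a BH3-only gene, which lay under the mean count set for naming and was chosen after its values were seen. HRK had raw counts of 0, 4 and 3 in SW1783 vehicle libraries of batch B, 0, 2 and 1 at the low dose, 4, 10 and 5 at the medium dose and 43, 57 and 51 at the high dose. The high group stood far above the rest, with a log2 fold change of 4.46 ± 0.68 that rests on few vehicle counts. In HT29 no library of batch B had more than 1 count of HRK. Of 8 transcription factors known to act on BH3-only genes, MYC rose in SW1783 at the high (1.60 ± 0.06) and medium dose (0.70 ± 0.06), and FOXO4 under wortmannin (0.96 ± 0.12). Of 8 genes of MCL1 turnover, DUSP6 rose in SW1783 at the high dose (1.42 ± 0.08), and 0 were called in any other treatment comparison. Where DESeq2 called 0 genes of a list, 0 to 7 of its genes had an unadjusted p below 0.05, and edgeR called 0 as well, except for ATF3 under wortmannin.

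Finally, the genes whose 8 log2 fold changes lay closest to those of a member were looked up by Euclidean distance, among 9547 genes whose mean normalized count reached 100 in all 4 fits. For PMAIP1 they were MTHFD2, at a distance of 0.54, and RELB, at 0.57. For BBC3 they were RND3 (0.37) and a gene listed as ENSG00000275993 (0.63), for BCL2 SPIRE1 (0.53) and FADS3 (0.55), and for BCL2L1 SLC15A4 (0.13) and ZNF277 (0.16). The nearest to BMF were NDRG4 and AKR1C3, at distances of 1.02 and 1.14, farther than for the other 4. The ACD comparisons of a line share their vehicle libraries, so that these distances are a description.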

How the data were processed

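RNA-seq libraries of SW1783 and HT29 cells were prepared by the authors with a directional mRNA kit and sequenced as paired-end reads. Per the submitters' processing notes, reads were checked with FastQC 0.11.9, trimmed with Trim Galore 0.6.5, aligned to GRCh38 with STAR 2.7.3a and quantified with RSEM 1.3.3. The study's methods give other versions of the trimmer and aligner. The deposited table held RSEM expected counts per gene, not normalized, and 8.84% of the values were not whole; they were rounded. Counts per gene do not separate splice forms, such as the long and short forms of BCL2L1, MCL1 and BCL2L11. All columns of the table were used, and symbols and exon lengths came from GENCODE release 44 on GRCh38.

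Treatments were compared with the vehicle of their own batch with the Wald test (two-sided) in DESeq2 1.42.0, run under R 4.3.3, following the study's methods, and p-values were adjusted by the Benjamini-Hochberg procedure over all genes of a contrast. Calls needed an adjusted p below 0.05 and an absolute log2 fold change over 0.585. A fit took the 12 batch B libraries or the 6 batch A libraries of a line, and line differences were interaction terms over both lines. Alternatives were edgeR 4.0.16 (quasi-likelihood), TMM-derived size factors, a filter on low counts, thinned counts, no mitochondrial genes, the groups compared alone, a replicate block, no fold threshold, vehicles of batch A for the line comparison, and 72 fits leaving out a library. The fits were tested on simulated data.

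Depth was 15941255 to 33866644 counts per library. A count of 0 allows up to 3 counts, or 0.089 to 0.188 CPM, which covers counting error only. All members were named. Of the other lists, the named genes were the 3 largest called changes per comparison whose mean normalized count reached 100, and nearest genes were the 2 closest. The members and lists were chosen with earlier results of these data known. Promoter sequences were those of RefSeq on GRCh38.p14. Protein sequences were not used here. Results of a further gene list are not reported here.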

Additional observations from a re-analysis of the deposited data

Results flagged for a closer look

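The difference between the cell lines in their response was tested and called for 4 members, as SW1783 minus HT29 on the log2 scale. BBC3 differed by 3.18 at the high and 1.85 at the medium dose of ACD, with rises in SW1783 and no call in HT29. In SW1783 at the high dose BBC3 reached a mean of 3.65 CPM, below the 9.15 CPM of HT29 vehicle cells of batch B. BMF differed by -1.57 at the high and -1.99 at the medium dose, and fell in SW1783 where it rose in HT29. PMAIP1 differed by 0.66 at the high dose, a value that was 0.49 without replicate 1 of the HT29 high dose, and by -0.73 under wortmannin. BCL2L11 differed by -0.62 at the medium dose, and the antisense gene MIR4435-2HG overlaps it. What lies behind these differences was not tested.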

How the results depend on the processing

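Of 56 member values with an adjusted p of DESeq2 below 0.05, 0 changed direction among 804 recomputed values, and 767 stayed on the same side of the call thresholds, while 24 lost and 13 gained a call. Without the fold threshold, the members called in SW1783 were 9 at the high dose, against 46.5% of all genes tested. They were 5 under wortmannin, against 33.9%, and 6 between the high and medium dose, against 40.9%. In HT29 they were 2 at the medium dose (2.09% of all genes), 2 at the low dose (0.649%) and 1 under wortmannin (18.7%). For the line differences they were 6 at the high dose (27.7%), 6 at the medium dose (10.4%) and 2 under wortmannin (14.9%). At the HT29 low dose edgeR and thinned counts gave 0 calls. Between the HT29 high and medium dose, edgeR, the replicate block and the fit of the compared groups alone gave 0. Leaving out a library gave 0 to 1 calls for both of these comparisons and 1 to 2 for the line difference under wortmannin. Deviations of same-numbered libraries from their group means correlated between -0.488 and 0.378. Differently numbered libraries were not correlated in this way, so that this range cannot decide whether the replicate numbers pair the samples. The replicate block otherwise changed the call of BCL2L11 at the SW1783 medium dose (-0.59, called). Scaling by TMM or edgeR moved the median of all genes by at most 0.036. At these depths BCL2 in HT29 and BBC3 in untreated SW1783 rest on few counts, and small changes of them were not detectable.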
